A study of Mus musculus with 2 samples.

Results

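Transcripts of 10 genes of the interleukin-6 (IL-6) and NF-kappa-B inflammatory response were followed in single cells of the mouse aortic root and ascending aorta. The genes were chosen by name, as Il6, Ptgs2, Tnfaip2, Tnfaip3, Tnfaip6, Nfkbia, Nfkbiz, Cebpb, Cebpd and Socs3, and all 10 had a row among the 18920 genes of both libraries. The mice carried Fbn1C1041G/+, a heterozygous fibrillin-1 mutation used as a model of Marfan syndrome, and were 16 weeks old. From week 6 to week 16 they received either GLPG0187, described by the submitters as an integrin alpha-v inhibitor, or vehicle, each day. Males and females contributed equally to each pool of aortas, and the labels do not state how many animals made up a pool. The cells did not divide equally by sex-linked transcripts. In the GLPG0187 library, 1139 cells had Xist and no Y-linked transcript, and 2685 had a Y-linked transcript and no Xist. In the vehicle library these numbers were 947 and 1664. Each treatment is 1 library, so no p-value or replicate error could be computed, and treatment cannot be told apart from differences between animals, dissections or library preparations. No wild-type mice were analysed here.

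IL-6 is a cytokine that binds its receptor IL-6R together with the signal transducer gp130 and activates JAK kinases and the transcription factor STAT3. NF-kappa-B is a family of transcription factors held in the cytoplasm by I-kappa-B proteins until tumour necrosis factor, interleukin-1 or Toll-like receptor signals reach the I-kappa-B kinase. NF-kappa-B induces inhibitors of its own pathway, and C/EBP factors act beside it on the promoters of cytokine genes. In the vessel wall, fibroblasts, macrophages and smooth muscle cells can all produce IL-6.

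The GLPG0187 library gave 4351 cells and the vehicle library 2947 after removal of called doublets, with medians of 3773 and 3788 genes per cell. The deposited values are whole numbers with a nearly even total per cell, of 12078 to 16719, as depth-corrected values would have, although the sources used here state no such correction. A level here is the mean of these values over the cells of a class. Classes were built without the 10 genes and without the pathway genes described further on. Stromal-like cells (fibroblast and mesenchymal markers) numbered 1946 in the GLPG0187 library against 1565 in the vehicle library, smooth muscle cell (SMC)-like cells 1299 and 545, macrophage-like cells 342 and 181, and endothelial-like cells 162 and 105. All 12 stromal, 10 SMC, 10 macrophage and 10 endothelial markers were detected in at least 25% of the cells of the clusters given those names. Stromal-like cells joined 3 clusters: cluster 1, led by Prss35, Cyp2e1 and Npy, cluster 2, led by Clec3b, Scara5 and Smoc2, and cluster 4, whose leading genes included Il6, Adamts4, Ptgs2, Hsd11b1 and Gdf10. Endothelial-like cells joined cluster 7, whose leading genes included the lymphatic endothelial markers Mmrn1 and Flt4, and cluster 9, led by Gpihbp1, Fabp4 and C1qtnf9. Cluster 7 held 139 and 81 of these cells, so the class is not mainly of 1 vessel type that can be read as blood vessel. The libraries shared 5 cell barcodes. Where a pair of values is given below with no library named, the GLPG0187 library comes before the vehicle library.

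In the GENCODE annotation of GRCm38, Il6 lies at chr5:30013114-30019981, Ptgs2 at chr1:150100031-150108227, Tnfaip6 at chr2:52038009-52056686, Tnfaip2 at chr12:111442469-111455018 and Cebpb at chr2:167688915-167690418. Nfkbia lies at chr12:55489410-55492647, Tnfaip3 at chr10:19000910-19015657, Nfkbiz at chr16:55811375-55838899, Cebpd at chr16:15887286-15891031 and Socs3 at chr11:117966079-117970047. All 10 are annotated as protein coding. Of the 10 genes, 8 had an entry in the RefSeq promoter table (GRCm38.p6), which covers 250 bases before and 50 bases after each start. The sequences of Il6, Ptgs2 and Nfkbia are shown because they carry matches to binding motifs of the factors that this gene group encodes or restrains. Capitals mark matches: in Il6, TTGTGCAA is a reverse-strand match to the C/EBP motif (TTGCNNAA) at position -128 from the start and GGGATTTTCC a match to the NF-kappa-B consensus at -44, in Ptgs2 TTGCGCAA is a C/EBP match at -69, and in Nfkbia GGAAATTCCC is a reverse-strand NF-kappa-B match at -29. The stretches are the 250 bases before the start, at chr5:30012864-30013113 (plus strand, Il6), chr1:150099781-150100030 (plus strand, Ptgs2) and chr12:55492648-55492897 (minus strand, Nfkbia).
Il6: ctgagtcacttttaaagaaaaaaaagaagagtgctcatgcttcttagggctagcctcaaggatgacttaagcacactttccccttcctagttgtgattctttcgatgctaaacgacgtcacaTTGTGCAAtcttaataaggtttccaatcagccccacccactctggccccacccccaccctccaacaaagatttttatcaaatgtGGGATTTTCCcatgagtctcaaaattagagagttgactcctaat
Ptgs2: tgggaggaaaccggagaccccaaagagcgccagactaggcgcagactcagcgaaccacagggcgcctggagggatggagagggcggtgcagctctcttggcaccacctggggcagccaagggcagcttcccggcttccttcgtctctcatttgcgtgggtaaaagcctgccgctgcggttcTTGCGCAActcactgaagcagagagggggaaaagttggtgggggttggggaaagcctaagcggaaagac
Nfkbia: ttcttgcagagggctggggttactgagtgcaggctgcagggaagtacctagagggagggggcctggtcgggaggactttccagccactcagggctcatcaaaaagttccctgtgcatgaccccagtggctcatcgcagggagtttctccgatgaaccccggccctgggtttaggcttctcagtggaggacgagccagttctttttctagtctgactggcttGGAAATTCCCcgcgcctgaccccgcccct
Both strands of all 32851 promoters in the table were searched, and 4.51% held the NF-kappa-B consensus, 10.8% the C/EBP motif and 8.30% the STAT motif (TTCNNNGAA). The promoters of Tnfaip2 and Cebpb and promoter 2 of Tnfaip3 held none of these motifs, and that of Ptgs2 no NF-kappa-B match. Promoter 1 of Tnfaip3 held NF-kappa-B matches at -125 and -12, and the promoters of Tnfaip6 and Socs3 held STAT matches at -209 and -154. These matches describe the sequence and were not measured as binding.

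Il6, the cytokine itself, was a stromal transcript carried by few cells. Its level was 2.10 in stromal-like cells of the GLPG0187 library and 0.924 in those of the vehicle library, a log2 ratio of 1.19. Values above 0 were found in 18.4% of stromal-like cells (358 of 1946, exact Clopper-Pearson 95% interval 16.7 to 20.2) in the GLPG0187 library against 10.5% (165 of 1565, 9.06 to 12.2) in the vehicle library. These intervals, like all others below, cover counting error only. In SMC-like cells, which had more detected genes per cell (medians of 4086 and 4205, against 3568 and 3685 in stromal-like cells), 2.85% and 1.65% of cells had a value above 0. That share is taken as background for Il6. Endothelial-like cells had 4.94% and 6.67% of cells above 0, and macrophage-like cells 8.48% and 6.08%. Stromal-like cells therefore held the highest Il6 level in both libraries and SMC-like cells the lowest, while endothelial-like and macrophage-like cells stood in opposite order in the 2 libraries.

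Cluster 4 held most of the Il6 signal. It made up 8.34% of the cells of the GLPG0187 library (363 cells) and 8.59% of those of the vehicle library (253 cells), and it held 78.9% and 73.8% of the summed Il6 value of all cells. The Il6 level in cluster 4 was 9.28 and 4.68, with values above 0 in 57.0% (51.8 to 62.2) and 35.2% (29.3 to 41.4) of cells. Among the cells above 0, the median value was 9 in the GLPG0187 library against 6 in the vehicle library, and the highest values were 116 and 121. The libraries thus differed in the share of Il6-positive cells and in their typical value, while the highest single values were close. Cluster 2 had Il6 levels of 0.863 and 0.388, and cluster 1 of 0.146 and 0.0421. The order of the stromal-like clusters was the same in both libraries. Over all stromal-like cells the 1% with the highest values held 29.2% of the summed Il6 in the GLPG0187 library against 48.7% in the vehicle library.

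**Figure D1:**
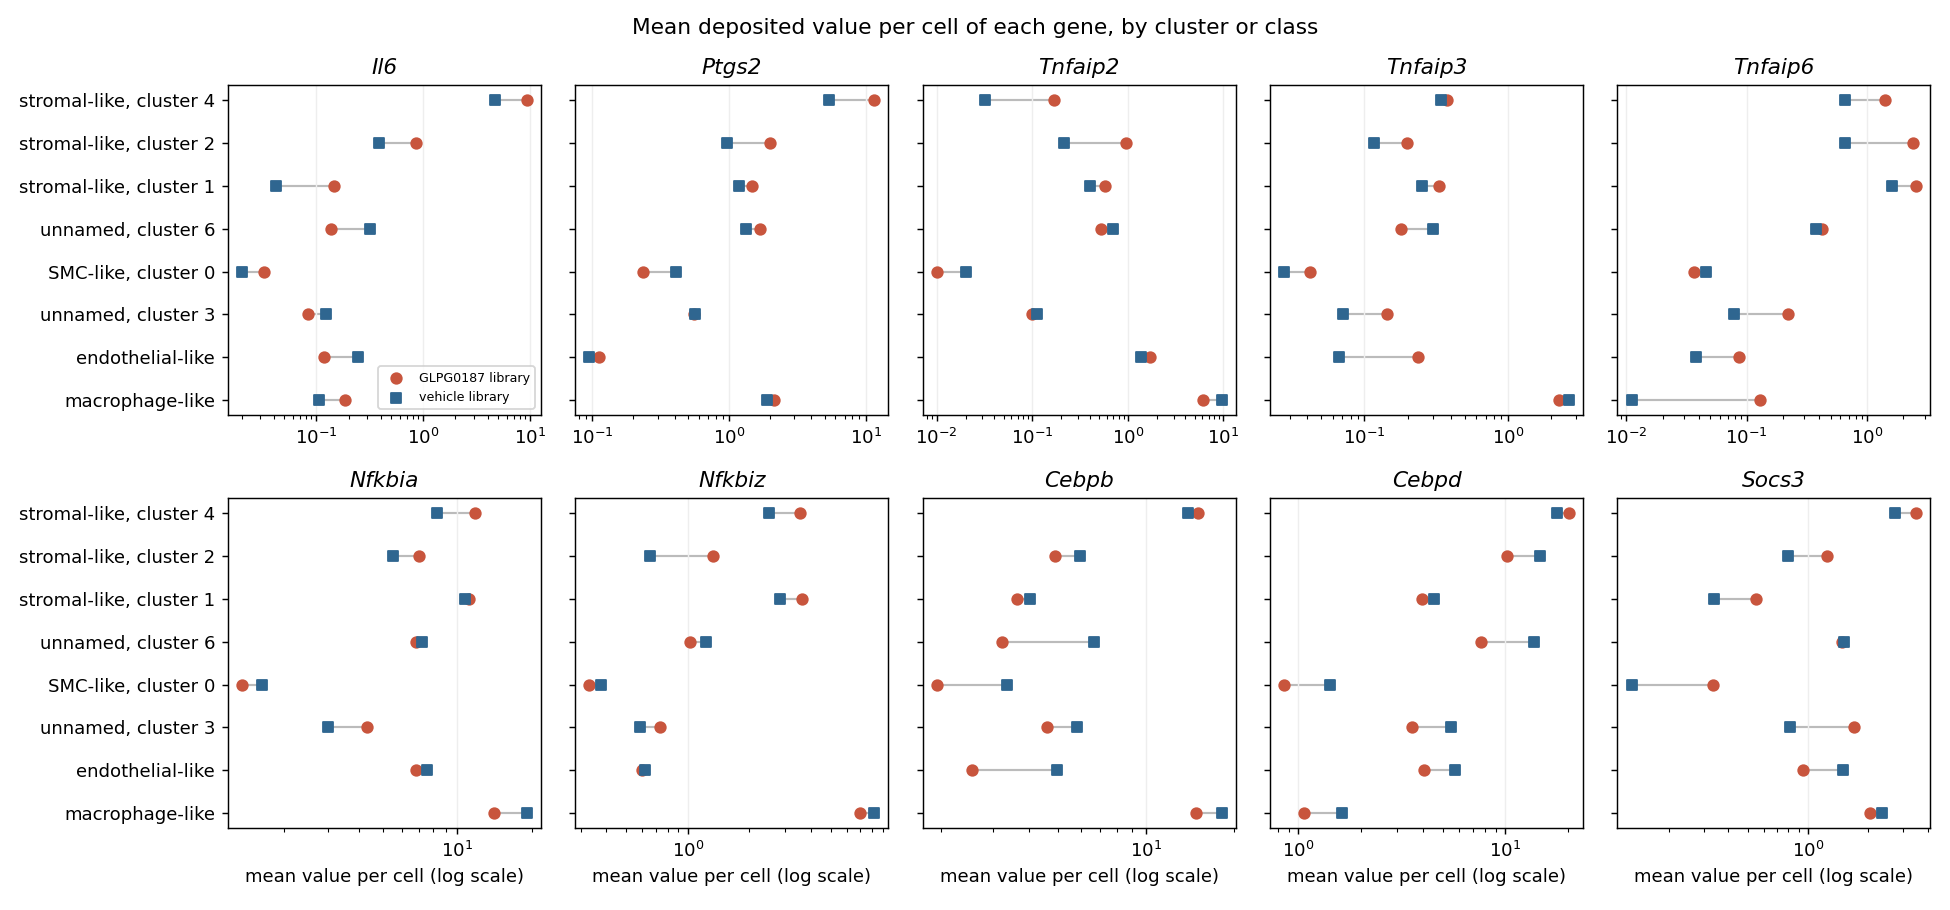
Mean deposited value per cell (horizontal, log scale, 1 panel per gene) in each stromal-like cluster, in 2 unnamed clusters and in the SMC-like, endothelial-like and macrophage-like cells; circles are the GLPG0187 library and squares the vehicle library. Il6 and Ptgs2 peak in cluster 4, whereas Tnfaip2, Tnfaip3, Nfkbia and Nfkbiz peak in macrophage-like cells.

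Ptgs2 encodes cyclooxygenase-2, the inducible enzyme of prostaglandin synthesis. Its level in stromal-like cells was 3.53 in the GLPG0187 library against 1.77 in the vehicle library (log2 ratio 0.996), with values above 0 in 36.3% (34.2 to 38.5) and 28.2% (26.0 to 30.5) of cells. Endothelial-like cells, the class with the lowest Ptgs2 level, had values above 0 in 4.94% and 5.71% of cells. Cluster 4 had Ptgs2 levels of 11.5 and 5.34, or 49.6% and 35.7% of the summed value of each library. In macrophage-like cells the levels were 2.14 and 1.91, between the levels of the 2 libraries in stromal-like cells. SMC-like cells went the other way, with 0.236 in the GLPG0187 library against 0.407 in the vehicle library (log2 ratio -0.78). In the unnamed cluster 3, which also holds smooth muscle genes, the levels were close, at 0.554 and 0.566.

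Tnfaip6 encodes TSG-6, a secreted protein that binds hyaluronan. Its stromal-like levels were 2.29 and 1.09 (log2 ratio 1.08). Unlike Il6, its largest part lay in cluster 1, which held 48.8% of the summed value in the GLPG0187 library against 62.1% in the vehicle library. Values above 0 were found in 53.9% and 55.5% of cluster 1 cells, 29.7% and 21.2% of cluster 2 and 27.8% and 24.1% of cluster 4. In cluster 1 the share thus did not rise with the level. Over all stromal-like cells the 1% with the highest values held 26.5% and 16.9% of the summed Tnfaip6. The highest single values were 121 and 36. The largest difference among the stromal-like clusters was in cluster 2, at 2.42 and 0.657 (log2 ratio 1.86). Within cluster 2 it came mainly from cells with a Y-linked transcript and no Xist, where the levels were 3.96 and 0.906, against 0.655 and 0.460 in cells with Xist and no Y-linked transcript. In SMC-like, endothelial-like and macrophage-like cells the summed Tnfaip6 value was under 100, the minimum set for a ratio.

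Tnfaip2, a gene induced by tumour necrosis factor, was highest in macrophage-like cells, at 6.17 in the GLPG0187 library against 9.54 in the vehicle library (log2 ratio -0.66). Endothelial-like cells followed with 1.71 and 1.38, and stromal-like cells with 0.631 and 0.271. The stromal-like ratio was 1.22 on the log2 scale, the opposite direction from macrophage-like cells. Cluster 2 again had the largest measured stromal difference, with levels of 0.959 and 0.215 (log2 ratio 2.13) and values above 0 in 23.8% and 10.3% of cells. SMC-like cells had values above 0 in 0.847% and 2.02% of cells.

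Nfkbia, Tnfaip3 and Nfkbiz encode regulators of NF-kappa-B. They differed by less than 1.5-fold over all stromal-like cells, whereas Tnfaip3 and Nfkbiz differed by more in cluster 2. Nfkbia encodes I-kappa-B alpha, which holds NF-kappa-B in the cytoplasm and is itself an NF-kappa-B target. Its levels were 9.80 and 8.35 in stromal-like cells, 14.1 and 19.1 in macrophage-like cells, 6.80 and 7.55 in endothelial-like cells and 1.35 and 1.63 in SMC-like cells, for the GLPG0187 and vehicle libraries in turn. All 4 ratios were under 1.5-fold. Tnfaip3 encodes A20, a ubiquitin-editing enzyme that dampens signalling to the I-kappa-B kinase. It was highest in macrophage-like cells, at 2.26 and 2.66, and stood at 0.294 and 0.214 in stromal-like cells (log2 ratio 0.46). Nfkbiz encodes I-kappa-B zeta, a nuclear protein that works with NF-kappa-B on secondary response genes, Il6 among them. Its levels were 7.0 and 8.17 in macrophage-like cells and 2.80 and 1.94 in stromal-like cells (log2 ratio 0.54). In cluster 2 Nfkbiz stood at 1.32 and 0.657 (log2 ratio 0.995) and Tnfaip3 at 0.197 and 0.117 (0.73), whereas Nfkbia stood at 7.02 and 5.52. Over the classes, Tnfaip3 and Nfkbiz had the order macrophage-like above stromal-like above SMC-like in each library.

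The C/EBP factors did not follow Il6 across the libraries. Cebpb had levels of 6.22 and 6.39 in stromal-like cells, a log2 ratio of -0.04, and 14.9 and 18.2 in macrophage-like cells, its highest class. In SMC-like cells its levels were 1.94 in the GLPG0187 library against 3.37 in the vehicle library (log2 ratio -0.79), and in endothelial-like cells 2.54 and 4.96 (log2 ratio -0.98). Cebpd had its highest class in stromal-like cells, at 9.18 and 10.6, and its lowest levels in SMC-like cells, at 0.853 and 1.43 (log2 ratio -0.74), with macrophage-like cells next at 1.06 and 1.62. Of the 3 stromal-like clusters, cluster 4 alone had both factors above the vehicle level, with Cebpb at 15.1 and 14 and Cebpd at 20.3 and 17.7. In the unnamed cluster 6, led by Chil1, Spp1 and Chad, Cebpb stood at 3.22 and 6.64 and Cebpd at 7.67 and 13.7.

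Socs3 encodes the suppressor of cytokine signalling that STAT3 induces and that blocks gp130 and JAK. Its stromal-like levels were 1.35 and 0.902, a 1.497-fold difference, just under the 1.5-fold limit used for counts, with values above 0 in 45.4% (43.1 to 47.6) and 34.2% (31.9 to 36.7) of cells. Within the stromal-like cells it was highest in cluster 4, at 3.51 and 2.74. SMC-like cells had low Socs3 but the largest ratio of the 6 genes measured there, 0.335 and 0.130 (log2 ratio 1.35), with 19.7% (17.6 to 22.0) and 10.3% (7.86 to 13.1) of cells above 0. In endothelial-like cells the difference went the other way, with levels of 0.944 and 1.51 (log2 ratio -0.69). That value rests on cluster 9, of 23 and 24 cells, where Socs3 was at 2.30 and 3.92. Cluster 7, with the other 139 and 81 endothelial-like cells, had 0.719 and 0.790 (log2 ratio -0.15). Cluster 9 was also a larger part of the class in the vehicle library (24 of 105 cells) than in the GLPG0187 library (23 of 162).

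Counted by size, the group leaned towards the GLPG0187 library in stromal-like cells alone among the 4 classes. There, 4 of 10 genes (Il6, Ptgs2, Tnfaip2 and Tnfaip6) were at least 1.5-fold higher in the GLPG0187 library and 0 at least 1.5-fold lower, whereas of 11544 genes measured in the class 1.99% were higher and 0.996% lower by that much. The median log2 ratio of the 10 genes was 0.56, against -0.04 for all measured genes. Cluster 2 had 7 of 10 higher (Il6, Ptgs2, Tnfaip2, Tnfaip3, Tnfaip6, Nfkbiz and Socs3, background 3.52%), cluster 4 had 3 of 9 measured (Il6, Ptgs2 and Tnfaip6, background 1.43%) and cluster 1 had 3 of 10 (Il6, Tnfaip6 and Socs3, background 1.6%). In SMC-like cells 6 genes were measured, of which 1 was higher (Socs3, background 0.562%) and 3 lower (Ptgs2, Cebpb and Cebpd, background 1.47%), with a median of -0.50. The unnamed cluster 3, which also holds smooth muscle genes, did not share this, with a median of 0.34 over 7 measured genes. In endothelial-like cells 0 of 6 were higher (background 4.98%) and 2 lower (Cebpb and Socs3, background 3.84%), with a median of -0.35. In cluster 7 alone, the larger endothelial-like cluster, Socs3 was under 1.5-fold, while Cebpb (2.78 and 5.82) and Cebpd (4.01 and 5.99) were lower. In macrophage-like cells 0 of 8 were higher (background 6.45%) and 2 lower (Tnfaip2 and Cebpd, background 3.29%), with a median of -0.29. The median of all measured genes lay between -0.04 and -0.01 in these 3 classes. In cells with Xist and no Y-linked transcript the SMC-like counts were 0 higher and 0 lower. The endothelial-like median was 0.13 in such cells, over 4 measured genes in place of 6. Whether the classes differ from each other could not be tested with 1 library per treatment.

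**Figure D2:**
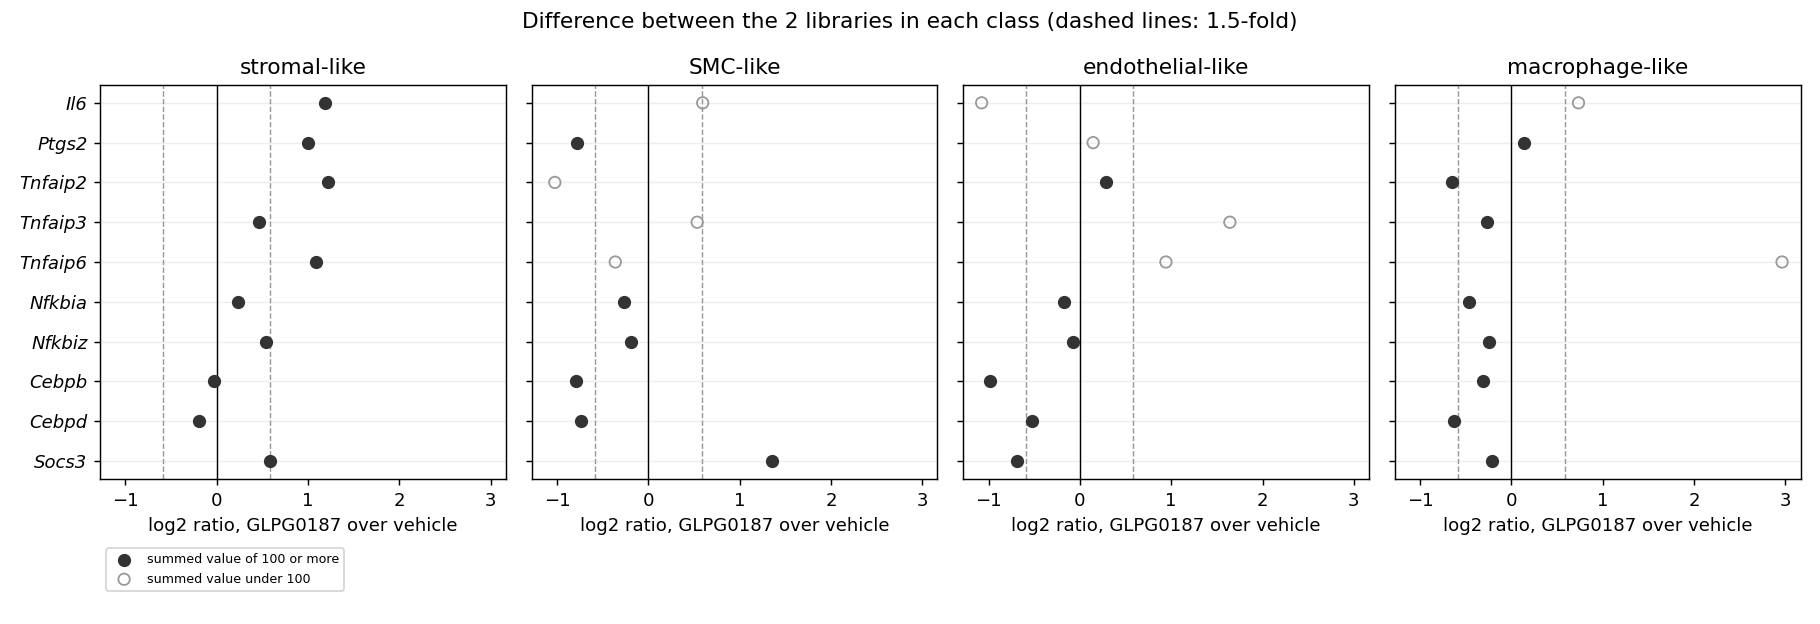
Log2 ratio of the GLPG0187 library over the vehicle library for each gene (rows) in the 4 classes (panels); filled points had a summed value of at least 100 over both libraries, open points less, and dashed lines mark 1.5-fold. In stromal-like cells Il6, Ptgs2, Tnfaip2 and Tnfaip6 lie between 0.996 and 1.22, while most filled points of the other classes lie left of 0.

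Cell type markers and other gene lists were set beside these differences, and not all of the lists moved in stromal-like cells. The summed level of 10 macrophage markers was 0.660 and 0.443 in cluster 2, 0.653 and 0.494 in cluster 4 and 0.576 and 0.396 in cluster 1, against 352 and 362 in macrophage-like cells, with Fcgr1 (both libraries) and Cx3cr1 (GLPG0187 library) at 0 in cluster 4 and Cx3cr1 at 0 in cluster 1 of the vehicle library. SMC markers had summed levels of 27.3 and 15.8 in cluster 2, 37.3 and 41.4 in cluster 4 and 19.6 and 17.1 in cluster 1, against 742 and 712 in SMC-like cells. Immediate early genes, which respond to handling of tissue as well as to signals, had 6 of 22 at least 1.5-fold higher and 0 lower in stromal-like cells of the GLPG0187 library (median log2 ratio 0.40), with Fosb at 9.29 and 5.54 and Klf4 at 12.6 and 8.25. In SMC-like cells the same list had 2 higher and 3 lower of 19, in endothelial-like cells 0 higher and 6 lower of 18, and in macrophage-like cells 0 higher and 3 lower of 21. The median log2 ratio of heat shock genes was -0.05 in stromal-like cells, 0.11 in SMC-like cells, -0.32 in endothelial-like cells (3 lower of 13) and -0.27 in macrophage-like cells (2 lower and 1 higher of 13). Glucocorticoid-responsive genes had a median of -0.09 in stromal-like cells (1 higher and 2 lower of 10), against -0.04 for all measured genes. Tsc22d3, a gene of that list, was at 2.44 and 4.40 there. The median of the list was -0.52 in SMC-like cells (1 higher and 5 lower of 10). It was -0.57 in endothelial-like cells (0 higher and 3 lower of 8) and -0.63 in macrophage-like cells (0 higher and 6 lower of 9). The part of handling, hormone exposure or free RNA in the differences was not tested.

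Ptgs2 was found more often in cells with Il6 than in cells without it. In cluster 4 of the GLPG0187 library, 72.5% (65.8 to 78.4) of the 207 Il6-positive cells had Ptgs2 above 0, against 41.7% (33.8 to 49.8) of the 156 cells with Il6 at 0. In the vehicle library the shares were 65.2% (54.3 to 75) of 89 cells and 30.5% (23.5 to 38.1) of 164 cells. Nfkbiz was above 0 in 87.0% of Il6-positive and 70.5% of Il6-negative cells in the GLPG0187 library, and in 84.3% and 54.9% in the vehicle library. Mean Cebpb was 18.4 in Il6-positive and 10.8 in Il6-negative cells of the GLPG0187 library, and 21.1 and 10.2 in the vehicle library. Cebpd followed the same pattern at 24.6 and 14.6, and 24.4 and 14.1. So in cluster 4 Cebpb and Cebpd were higher in the Il6-positive cells of either library, although neither gene was higher in the GLPG0187 library over all stromal-like cells. In cluster 1, with 35 and 24 Il6-positive cells, Cebpd was instead at 3.31 in Il6-positive and 3.97 in Il6-negative cells of the GLPG0187 library, and at 3.54 and 4.57 in the vehicle library. Within cluster 4, Socs3 separated the cells in the vehicle library (84.3% of Il6-positive and 62.2% of Il6-negative cells above 0). It did so less in the GLPG0187 library (84.1% and 80.8%). Over all stromal-like cells its shares were 74.9% and 38.7% in the GLPG0187 library, and 68.5% and 30.2% in the vehicle library. Cluster 2 was alike (70.7% and 39.4%, and 61.5% and 30.1%). Cluster 1 had close shares (34.3% and 30.8%, and 25% and 22.7%). Fos, an immediate early gene, had lower means in Il6-positive than in Il6-negative cells of cluster 4, 34.8 and 56.1 in the GLPG0187 library and 36.0 and 46.8 in the vehicle library. Over all stromal-like cells the order of Fos was the opposite, at 36.1 and 28.7, and 36.5 and 22.4, and so it was in cluster 2, at 41.8 and 26.8, and 41.2 and 19.0. Detected genes per cell of cluster 4 were similar, with medians of 3504 and 3427 in the GLPG0187 library and 3593 and 3764 in the vehicle library.

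**Figure D3:**
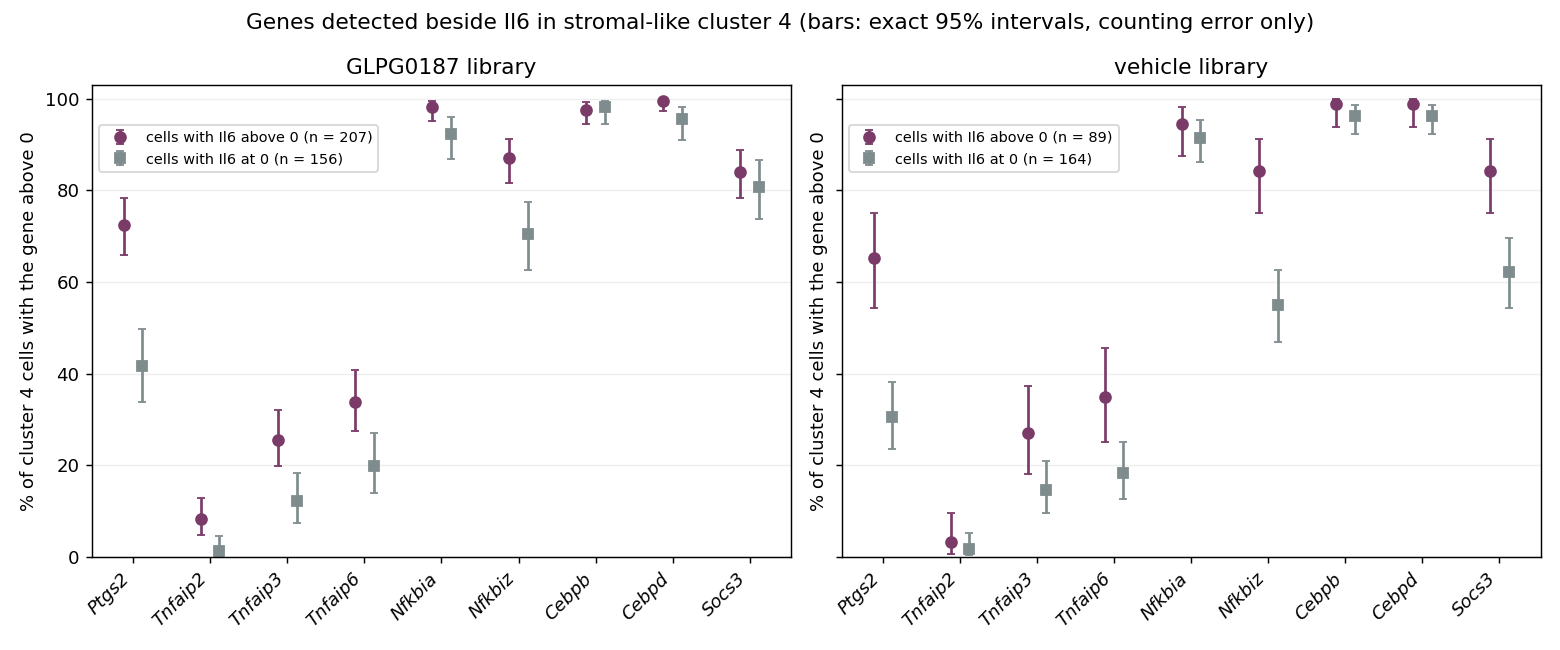
Percent of cluster 4 cells with each gene above 0 (vertical), in cells with Il6 above 0 (circles) and at 0 (squares), by library (panels); bars are exact 95% Clopper-Pearson intervals, which cover counting error only. Ptgs2 and Nfkbiz are separated in both panels, whereas the intervals of Socs3 overlap in the GLPG0187 library.

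Over all stromal-like cells, the gene most like Il6 was Ptgs2. Pearson's r between the 2 genes, on the logarithm of 1 plus the value, was 0.46 over 1946 cells of the GLPG0187 library and 0.38 over 1565 cells of the vehicle library, rank 1 of 10166 genes by the lower of both values. Outside the group, the 5 genes most like Il6 were Nr4a3 (0.42 and 0.37), Adamts1 (0.47 and 0.37), Gadd45b (0.43 and 0.36), Zfp36 (0.39 and 0.35) and Mt1 (0.44 and 0.34). Cebpb had r of 0.46 and 0.31 and Tnfaip2 of 0.06 and -0.01, the ends of the range among the other members apart from Ptgs2. Zfp36 and Mt1 belong to the immediate early and glucocorticoid-responsive lists used above. These r values also take in the differences of level between the stromal-like clusters. Within cluster 4, Fosl2 was rank 1 of 9697 genes (0.425 and 0.429), Ptgs2 rank 2 (0.422 and 0.446) and Socs3 rank 1251 (0.032 and 0.126). Over all stromal-like cells Socs3 was rank 26 (0.335 and 0.292). Cells of a library share its preparation, so all these values describe the libraries only. A cell with at least 8 of the 10 genes above 0 was found in 9.25% of stromal-like cells of the GLPG0187 library (180 cells) and 4.98% of the vehicle library (78 cells), in 20.7% and 10.7% of cluster 4, and in 11.1% and 6.63% of macrophage-like cells. It was found in 0 SMC-like and 0 endothelial-like cells.

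Because males and females were pooled, stromal-like cells could be split within each library by Xist and Y-linked transcripts. Cells with Xist and no Y-linked transcript numbered 536 and 563, and cells with a Y-linked transcript and no Xist 1156 and 829. The mix of these cells thus differed between the libraries. In each library Il6, Ptgs2, Tnfaip2 and Tnfaip6 had higher levels in the cells with a Y-linked transcript. Ratios over all stromal-like cells take in this mix, and its part in them was not tested. In cells with Xist, Il6 was 1.60 in the GLPG0187 library against 0.604 in the vehicle library, and in cells with a Y-linked transcript 2.61 and 1.198. Ptgs2 was 2.27 and 1.36 in cells with Xist and 4.26 and 2.20 in cells with a Y-linked transcript. In cluster 2 alone the Il6 difference lay in cells with a Y-linked transcript (1.27 and 0.257) and not in those with Xist (0.469 and 0.442). Over all stromal-like cells Tnfaip2 and Tnfaip6 were also higher in the GLPG0187 library in both kinds of cell. Cebpb was not uniform, at 7.10 and 5.53 in cells with Xist and 5.95 and 7.01 in cells with a Y-linked transcript. In SMC-like cells the lower Cebpb lay in cells with a Y-linked transcript (1.64 and 3.62) and not in those with Xist (2.61 and 2.64). The Socs3 difference of SMC-like cells was larger in cells with a Y-linked transcript (0.379 and 0.0923) than in those with Xist (0.270 and 0.193), which was not tested.

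**Figure D4:**
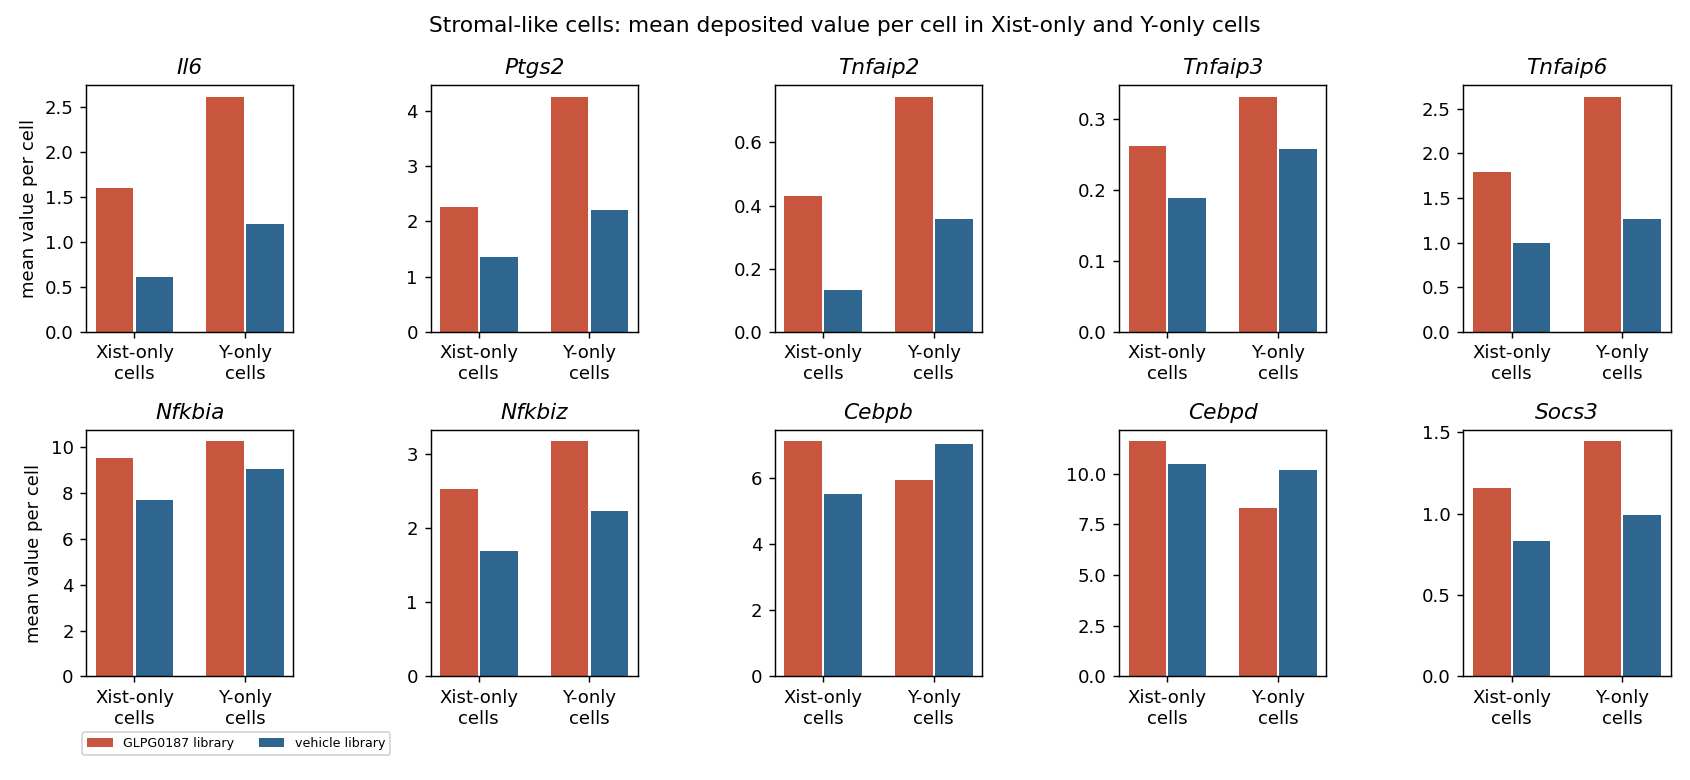
Mean deposited value per stromal-like cell (vertical, from 0, 1 panel per gene) in cells with Xist and no Y-linked transcript and in cells with a Y-linked transcript and no Xist; bars are the GLPG0187 and vehicle libraries, with no error bar because each is 1 library. Il6, Ptgs2, Tnfaip2 and Tnfaip6 are higher in the GLPG0187 library in both kinds of cell, whereas Cebpb and Cebpd differ in direction between them.

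Other genes of the pathway were counted by the same 1.5-fold limit, with a stromal-like background of 1.99% higher and 0.996% lower. In stromal-like cells, of 19 measured genes of the IL-6 family, its receptors and JAK-STAT signalling that are reported here, 1 was at least 1.5-fold higher in the GLPG0187 library and 0 lower: Bcl3, an I-kappa-B family member, at 0.337 and 0.197. Of 30 NF-kappa-B subunits, inhibitors, kinases and adaptors, 2 were higher and 0 lower, namely Map3k8, a kinase downstream of Toll-like and tumour necrosis factor receptors, at 0.417 and 0.263, and Zc3h12a, an RNase that degrades Il6 mRNA, at 0.304 and 0.177. Of 12 upstream ligands and receptors, Tlr2 (0.239 and 0.159) and Il1b (0.0375 and 0.0224) were higher. The summed Il1b value was only just past the minimum, and its level was far below that of macrophage-like cells, given further on. Of 11 prostaglandin genes beside Ptgs2, 0 were higher and Ptgds was lower (0.0812 and 0.163), and of 4 other C/EBP genes 0 passed in either direction. Nfkb1, which encodes an NF-kappa-B subunit, was at 4.22 and 2.53 in cluster 4 (log2 ratio 0.76) and at 2.39 and 1.71 over all stromal-like cells (0.48). In cluster 2, 4 of 16 IL-6 family genes were higher and 0 lower (background 3.52%), Il6ra at 0.294 and 0.188, Socs1 at 0.373 and 0.210, Bcl3 at 0.256 and 0.0817 and Pim1, a kinase induced by STAT factors, at 1.05 and 0.563. There too 3 of 28 NF-kappa-B genes were higher and 0 lower, namely Map3k8 (0.356 and 0.207), Irak3 (0.499 and 0.308), which restrains Toll-like receptor signalling, and Zc3h12a (0.262 and 0.137). Cluster 2 thus had more IL-6 family genes past the limit than cluster 1 (1 of 18, background 1.6%) or cluster 4 (1 of 15, background 1.43%), a difference that was not tested. Clusters 1 and 4 each had 2 higher NF-kappa-B genes, of 29 and 24 measured.

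Il6 and its receptor gene were highest in different classes. The following levels were chosen for the genes' roles after their values were seen. Il6ra, the IL-6 receptor, was highest in macrophage-like cells at 1.13 and 1.63, against 0.172 and 0.118 in stromal-like cells. Il6st, which encodes gp130, stood at 4.51 and 4.49 in endothelial-like cells, 2.77 and 2.81 in stromal-like cells, 0.946 and 0.872 in SMC-like cells and 0.547 and 0.613 in macrophage-like cells. Tnf and Il1b, which encode activating ligands of NF-kappa-B, were at 7.15 and 8.32 and at 28.8 and 34.9 in macrophage-like cells.

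In SMC-like cells 0 of 14 measured IL-6 family genes, 0 of 27 NF-kappa-B genes, 0 of 6 upstream genes, 0 of 4 prostaglandin genes and 0 of 3 C/EBP genes passed 1.5-fold in either direction. The background there was 0.562% higher and 1.47% lower. In macrophage-like cells 1 of 14 IL-6 family genes was higher in the GLPG0187 library (background 6.45%), Socs1 (0.368 and 0.0774), a relative of Socs3 that restrains interferon signalling. Of 14 upstream genes 2 were higher there, Il1rn, the interleukin-1 receptor antagonist (5.54 and 2.38), and Tlr3 (0.228 and 0.122). Of 30 NF-kappa-B genes 1 was higher, Myd88 (0.711 and 0.453), and 1 lower, Tnfaip1 (0.219 and 0.326, background 3.29%). The IL-6 family and NF-kappa-B counts were near or below the background, and none of these counts was tested. In endothelial-like cells 1 of 12 IL-6 family genes, Jak2 (0.451 and 0.267), and 1 of 5 upstream genes, Il17ra (0.494 and 0.305), were higher (background 4.98%). There 0 of the pathway genes reported here were lower (background 3.84%). Socs3 thus did not share the direction of Socs1 in macrophage-like cells, where its levels were 2.07 and 2.35.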

How the data were processed

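Aortic root and ascending aorta were digested with enzymes, sorted to remove debris and made into droplet libraries, per the labels' protocols, 1 library per treatment. The authors deposited whole numbers per gene and cell with nearly even totals per cell, which were handled as a score, so no count model was used and the raw depth per cell is unknown. Cell Ranger, Seurat and mm10 are named, with no version or role, per the submitters' processing notes. Whether and how depth was corrected is not stated in those sources.

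A filter on cells (200 genes or more, mitochondrial signal of 20% or less) removed 0 cells. Scrublet, in scanpy 1.11.5, called 46 doublets (1.05%) among GLPG0187 cells and 14 (0.473%) among vehicle cells, which were removed. Cells were clustered on 2000 variable genes, without mitochondrial, ribosomal, Xist, Y-linked, member and pathway genes, with 30 principal components, 20 neighbours and Leiden resolution 0.5. A cluster was named where at least 75% of the markers of a class were in at least 25% of its cells, its marker score was at least 0.5 and markers of other classes did not outnumber its own among the 10 leading genes. Cluster 3, led by Tnnt2, Timp4 and Nrgn, stayed unnamed by this rule although it holds smooth muscle genes, and clusters 6, 8 and 10 also stayed unnamed. Names are rebuilt here and may differ from the study's.

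Values were summed per class and library, 1 was added to each sum, and the sums were divided by the class totals to give log2 ratios (GLPG0187 over vehicle). A gene was measured with a summed value of at least 100 over both libraries and counted when at least 1.5-fold higher or lower. The calculation of the ratios was run on simulated data with known ratios. Those data were Poisson draws around the class mean with no difference between libraries or animals. The run therefore checks the arithmetic only and not the ratios reported here. All 10 members are named, with pathway genes past 1.5-fold and the 5 genes most correlated with Il6 among genes above 0 in at least 5% of stromal-like cells of both libraries. Genes named as list examples and the receptor and ligand levels were chosen after their values were seen. Members, lists and naming thresholds were chosen with earlier results of these data known. Alternatives covered clustering, doublets, scaling, the minimum, the added value, shares of cells at a value of at least 2, Xist-only and Y-only cells and the highest cells. A gene of the IL-6 family list is not reported here and was left out of the counts for that list.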

Additional observations from a re-analysis of the deposited data

Results flagged for a closer look

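The libraries differed in opposite directions in pairs of cell classes for 3 genes, and in none of them was the difference between the classes tested. Ptgs2 had a log2 ratio of GLPG0187 over vehicle of 0.996 in stromal-like cells and -0.780 in SMC-like cells, a difference of 1.776 between the classes. In the unnamed cluster 3, which also holds smooth muscle genes, Ptgs2 levels were close, at 0.554 and 0.566. Tnfaip2 had 1.220 in stromal-like cells and -0.655 in macrophage-like cells, a difference of 1.875. Socs3 had 1.352 in SMC-like cells and -0.689 in endothelial-like cells, a difference of 2.041. The endothelial-like value rests on cluster 9 (23 and 24 cells, -0.803), while cluster 7 (139 and 81 cells) had -0.153. Tnfaip6 in cluster 4 had opposite directions in the 2 kinds of cell split by sex-linked transcripts, with -0.910 where Xist alone was found and 1.793 where a Y-linked transcript alone was found, a difference of -2.703 that also was not tested. Each value rests on 1 library per treatment.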

How the results depend on the processing

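No paired analysis was possible because each treatment is 1 library, and for the same reason no replicate could be left out. In stromal-like cells the median of the 10 genes lay between 0.40 (cluster 1 alone) and 0.86 (cluster 2 alone) over all alternatives, and the count of higher genes between 3 (cluster 1 or cluster 4 alone) and 7 (cluster 2 alone). The log2 ratio of Il6 in stromal-like cells was 1.65 without the 1% of cells with its highest values. Other classes moved more. With the members and pathway genes kept in clustering, the SMC-like median (-0.50) was -0.14 with 2 genes higher in place of 1. That class was then a different set of cells, as the cluster matching the unnamed cluster 3 was also named SMC-like. It held 1663 and 828 cells with 9 genes measured, in place of 1299 and 545 cells with 6. In Xist-only cells the SMC-like median was -0.18 with 0 genes higher and 0 lower, and macrophage-like cells had 1 higher and 1 lower. The endothelial-like median was 0.13 in Xist-only cells (-0.35 over all cells) with 1 higher and 1 lower. It covered 4 measured genes in place of 6, without Socs3, so the 2 medians are not of the same genes. In Y-only cells the endothelial-like median was -0.68 and 1 macrophage-like gene was lower. With no minimum value, 2 genes were higher in each of the SMC-like, endothelial-like and macrophage-like classes. Directions turned for Cebpd in cluster 3 (-0.60, and 0.039 in Xist-only cells) and for Tnfaip6 in cluster 4 (-0.91 in Xist-only cells). Of 363 ratios of single genes recomputed in the 4 classes, 332 stayed within 0.32 of their value on the log2 scale, 31 moved further and 0 of those past 1.5-fold changed sign. Some of the 363 could hardly move. Dropping the minimum leaves a ratio as it was, and a change of scaling shifts all genes of a class by 1 small amount. The count is therefore not a measure of how firm the ratios are. Shares of cells depend on the limit: with a value of at least 2 in place of above 0, 71 of 80 shares left their 95% interval, and the libraries kept their order in 36 of 40 pairs of shares. The Il6 shares were then 14% and 6.9% in stromal-like cells, and 0.154% and 0.367% in SMC-like cells, where the order turned. It also turned for Tnfaip2 in SMC-like and endothelial-like cells and for Tnfaip6 in SMC-like cells. The causes were not tested. Endothelial-like and macrophage-like Xist-only cells were few (50 and 27, 44 and 38), which limits these values.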
